A study of Homo sapiens with 4 samples.

Results

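The 5 host genes of small nucleolar RNAs (snoRNAs) SNHG3, SNHG5, SNHG11, SNHG12 and DANCR were examined in the HUH7 cell line, which was derived from a human hepatocellular carcinoma. They were chosen by name, and every row of the deposited FPKM table whose transcript identifier belongs to one of them in the GENCODE annotation on GRCh37 was taken. This gave 44 transcript rows of 19835 in all. The 4 libraries formed 1 group, replicates 1 to 4, of HUH7 cells grown in medium with serum and with no treatment named, so there was no control arm. The titles carry the letter L for replicates 1 and 3 and the letter H for replicates 2 and 4. The submitters call these internal names that stand for no variable of the analysis, so they formed no groups in any test. The order of the libraries by letter is only described. The comparisons were those of the genes with the study's level of 5 FPKM, with each other, and of the transcripts within each gene. The labels do not state whether each library had a culture of its own, and the p-values cover the spread from library to library, technical or not. FPKM is the number of fragments per length of transcript and per depth of library. Errors are SD over n = 4 libraries.

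A snoRNA host gene carries snoRNAs in its introns. After splicing, the intron is trimmed back to the snoRNA, which guides the chemical modification or the cleavage of ribosomal RNA, while the joined exons form a long non-coding RNA. Box C/D snoRNAs guide ribose methylation and most box H/ACA snoRNAs guide pseudouridylation, and SNORA73, an H/ACA RNA, takes part in the cleavage of the ribosomal precursor. Host genes are commonly transcribed at a high rate in growing cells. DANCR is also known as a long non-coding RNA that keeps progenitor cells of the epidermis undifferentiated.

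RefSeq lists 11 snoRNAs within the spans of these genes: SNORA73A and SNORA73B in SNHG3, SNORD50A and SNORD50B in SNHG5, SNORA60 and SNORA71E in SNHG11, SNORA16A, SNORA44, SNORA61 and SNORD99 in SNHG12, and SNORA26 in DANCR. On GRCh37, the annotation held 4 of them on the strand of the host, and 6 further places matched a snoRNA of a hosted family over at least 80% of its length and at 75% identity or more. The sequences below are shown because their place inside or outside the exons of a row is what the transcript shares turn on. Capitals mark the ACA box near the 3′ end of an H/ACA RNA, or the letters TGATGA (C box) and CTGA (D box) of a C/D RNA where they were found on the strand shown.
SNORA73 copy in SNHG3, chr1:28833878-28834080, plus strand: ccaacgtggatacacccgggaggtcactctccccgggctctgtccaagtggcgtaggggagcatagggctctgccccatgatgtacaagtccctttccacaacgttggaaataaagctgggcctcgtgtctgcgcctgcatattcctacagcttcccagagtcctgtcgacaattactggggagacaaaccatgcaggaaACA
SNORA73B in SNHG3, chr1:28835071-28835274, plus strand: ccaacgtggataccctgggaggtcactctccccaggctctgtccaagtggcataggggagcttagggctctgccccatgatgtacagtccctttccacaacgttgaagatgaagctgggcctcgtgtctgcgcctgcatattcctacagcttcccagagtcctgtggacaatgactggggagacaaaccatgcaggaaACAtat
SNORA26 in DANCR, chr4:53579416-53579537, plus strand: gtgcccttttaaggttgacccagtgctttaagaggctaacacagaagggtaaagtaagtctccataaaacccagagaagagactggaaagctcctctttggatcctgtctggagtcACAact
SNORA60 in SNHG11, chr20:37078013-37078146, plus strand: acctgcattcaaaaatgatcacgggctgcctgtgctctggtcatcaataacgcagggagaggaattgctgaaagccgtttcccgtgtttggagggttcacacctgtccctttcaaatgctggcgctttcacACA
SNORD50 copy in SNHG5, chr6:86387012-86387085, minus strand: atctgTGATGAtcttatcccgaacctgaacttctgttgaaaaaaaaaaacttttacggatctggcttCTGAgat
SNORD50 copy in SNHG5, chr6:86387307-86387376, minus strand: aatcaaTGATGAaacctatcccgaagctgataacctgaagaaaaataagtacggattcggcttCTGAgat
SNORD99 in SNHG12, chr1:28905261-28905334, minus strand: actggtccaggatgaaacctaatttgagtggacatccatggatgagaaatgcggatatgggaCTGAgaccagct
The SNORA73 copy was 94.6% identical to SNORA73B. RefSeq also lists SNORA73A in SNHG3, and SNORD50A and SNORD50B in SNHG5, which the annotation did not hold there. The copies may be these snoRNAs, and which one each is was not tested. Only the D box letters were found in SNORD99.

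All 5 genes were above 5 FPKM in every library, and 3 of them stood among the 13 highest of 11465 matched genes. SNHG5 summed to 4231, 4309, 3813 and 4791 FPKM in replicates 1 to 4, a mean of 4286 ± 401, and ranked 6. DANCR summed to 4019, 3451, 3850 and 4206 FPKM, a mean of 3882 ± 322, and ranked 10. SNHG3 summed to 2448, 2839, 2589 and 3272 FPKM, a mean of 2787 ± 361, and ranked 13. These 3 genes lay within 1 range, in which SNHG5 and DANCR overlapped and all DANCR libraries lay above all SNHG3 libraries. SNHG12 was lower, at 449.3, 544.9, 446.3 and 479.1 FPKM, a mean of 480 ± 45.8, and ranked 163. SNHG11 was the lowest, at 104.3, 83.3, 81.2 and 85.9 FPKM, a mean of 88.7 ± 10.6, and ranked 1060. Neither overlapped another member in any library.

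**Figure D1:**
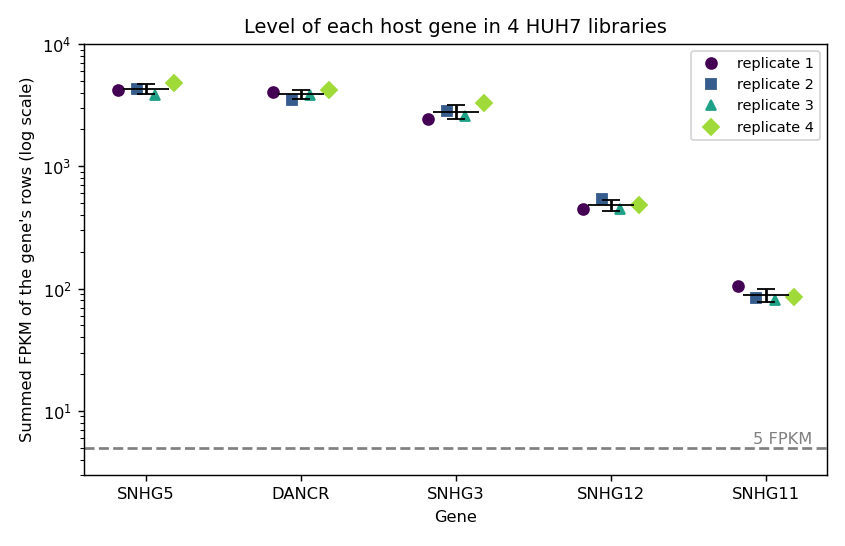
Summed FPKM (log axis) of the rows of each gene in each of the 4 HUH7 libraries (points), with the mean and SD (black bars) and the study's level of 5 FPKM (dashed line). SNHG5, DANCR and SNHG3 lie between 2448 and 4791 FPKM, SNHG12 between 446.3 and 544.9, and SNHG11 between 81.2 and 104.3.

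On the log2(FPKM + 1) scale, the member nearest to 5 FPKM, SNHG11, was still 3.89 ± 0.09 (SE) above it, and SNHG5 was 9.48 ± 0.11 (SE) above it. The limma test called all 5 genes above 5 FPKM, with adjusted p between 1.88e-17 and 7.59e-15. Over all 7124 genes tested, it called 50.3% above and 38.5% below, so a call above 5 FPKM was common in this table. The spread was modest: the highest library was between 1.22 and 1.34 times the lowest in each member. SD were 8.29% of the mean for DANCR, 9.35% for SNHG5, 9.54% for SNHG12, 11.9% for SNHG11 and 13.0% for SNHG3. The medians over genes within a factor of 2 of each level were 12.6%, 13.0%, 10.5%, 12.1% and 12.0%, respectively.

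**Figure D2:**
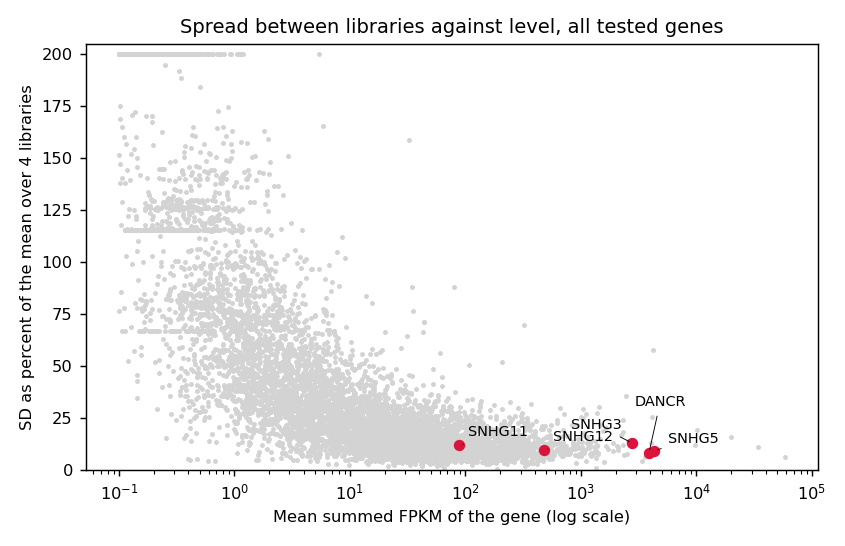
SD as a percentage of the mean over the 4 libraries (y axis) against the mean summed FPKM (x axis, log scale) for each tested gene (grey points), with the 5 host genes in red. The 5 genes lie between 8.29% and 13.0%, within the cloud of genes of like level.

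The order of levels was tested by the ratio within a library, fitted over all genes. SNHG5 and DANCR could not be ordered: SNHG5 was higher in 3 of 4 libraries, with a mean log2 ratio of 0.14 ± 0.14 (adjusted p = 0.377, limma). When each gene was represented by its highest row only, DANCR stood above SNHG5, with a log2 ratio of -0.18. DANCR exceeded SNHG3 in 4 of 4 libraries, by a log2 ratio of 0.48 ± 0.20, or 1.40-fold (adjusted p = 0.00646, limma). SNHG3 exceeded SNHG12 by 2.53 ± 0.17 (adjusted p = 1.73e-10, limma) and SNHG12 exceeded SNHG11 by 2.42 ± 0.25 (adjusted p = 9.64e-62, limma), in 4 of 4 libraries each. The neighbours were set by the mean levels in these same libraries, and the small p-values borrow the spread from all genes. An exact sign-flip permutation test on the 4 libraries alone gave 0.125 for each of these 3 pairs, the smallest value it allows. As background, 0.0702% of 7123 genes were called higher than DANCR, 0.154% higher than SNHG3, 1.84% higher than SNHG12 and 12.6% higher than SNHG11.

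The libraries moved the members differently. Replicate 4 was the highest for SNHG5, DANCR and SNHG3, replicate 2 for SNHG12 and replicate 1 for SNHG11. Both libraries titled H lay above both titled L in 3 of 5 members, SNHG3, SNHG5 and SNHG12, while DANCR and SNHG11 overlapped. SNHG5 overlapped as well after scaling by the median of ratios, and SNHG5 and SNHG12 after scaling to a common sum without the most abundant row, both chosen after seeing the data for this comparison. Of all 7124 genes tested, 15.2% lay in that order and 12.6% in the opposite one. The letters are, per the submitters, no variable of the analysis, and their part in the spread was not tested. Over the 10 pairs of members, the SD of the log2 ratio lay between 0.112 (SNHG3 and SNHG5) and 0.298 (SNHG3 and SNHG11), while the median SD of a member's ratio to 2099 other named genes of at least 5 FPKM was 0.209 to 0.287. The genes with the lowest SD of the ratio, over 4 libraries, were SLC25A28-DT and KMT2E-AS1 for SNHG3, LINC02751 and LINC00687 for SNHG5, POLDIP2 and MRPS31P5 for SNHG11, MIR194-2HG and MRLN for SNHG12, and APTR and MAPK6-DT for DANCR. Their SD lay between 0.00985 and 0.0302. None of these 10 was another tested host gene. No more than 25 of the 2099 candidates could be tested host genes, so their absence says little about whether host genes vary together. MIR194-2HG had 91.2, 111.9, 90.0 and 97.3 FPKM in replicates 1 to 4, highest in replicate 2 as SNHG12 was. Each of these genes was picked from 2099 for its likeness over 4 libraries, so the shared pattern was set by that choice.

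Of the 44 rows, 35 were above 0 in at least 1 library and 9 were at 0 in all libraries. The 35 rows all passed the filter of a mean of 0.1 FPKM. The limma test placed 21 of them above 5 FPKM, 6 below, and did not place 8. This is 60% above, against 41.9% above and 43.3% below of all 11435 rows tested. By gene, 7 of 9 tested rows of SNHG5, 3 of 4 of DANCR, 3 of 3 of SNHG3, 5 of 8 of SNHG12 and 3 of 11 of SNHG11 were above. Only 5 of the 44 rows had the same version number as the annotation, including all 3 rows of SNHG3. The exons of the other 39 rows may differ from those given here.

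DANCR (chr4:53578492-53587850, plus strand) was held by 1 transcript. ENST00000425653, with 2 exons in the current model, had 3757, 3227, 3538 and 3864 FPKM in replicates 1 to 4, a mean of 3597 ± 281. It took 92.7% ± 0.92 of the gene. The next row, ENST00000441504, had 206.1, 185.4, 274.6 and 293.4 FPKM, or 6.15% ± 1.05 of the gene, higher in replicates 3 and 4 than in replicates 1 and 2. The ratio of the leading to the next row was 3.92 ± 0.26 on the log2 scale. The other 2 rows held 1.16% together.

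SNHG5 (chr6:86386355-86388466, minus strand) also had a clear leading row. ENST00000414002, with 6 exons and 451 nt in the current model, had 3148, 3202, 2805 and 3545 FPKM, a mean of 3175 ± 303, or 74.1% of the gene. ENST00000369605 had 316.6, 290.8, 282.3 and 370.1 FPKM, a mean of 315 ± 39.5. It held 7.35% of the gene, and in the current model it had no stretch of 50 bases found in no other row. The leading row was 3.33 ± 0.09 higher on the log2 scale. The 7 other rows above 0 lay between 6.77 and 220 FPKM and held 18.6% together. The exons of SNHG5 overlap those of a coding gene model, ENSG00000271793, on the same strand, so reads of that model could not be told apart from those of SNHG5.

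SNHG3 (chr1:28832492-28837404, plus strand) was held by partly spliced rows. ENST00000437681, annotated as a retained intron, had 1531, 1559, 1416 and 1799 FPKM, a mean of 1576 ± 161. Its first exon, chr1:28832863-28834672, runs through the intron and holds the SNORA73 copy shown above. The short row ENST00000447507, of 185 nt and also annotated as a retained intron, had 869, 1227, 1126 and 1411 FPKM, a mean of 1158 ± 226. The spliced row of 3 exons, ENST00000413987, whose exons hold no snoRNA, had only 47.9, 53.2, 47.5 and 61.4 FPKM, a mean of 52.5 ± 6.45. The retained intron rows thus took 98.1% ± 0.05 of the FPKM of SNHG3, between 98.04% and 98.17% in each library.

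**Figure D3:**
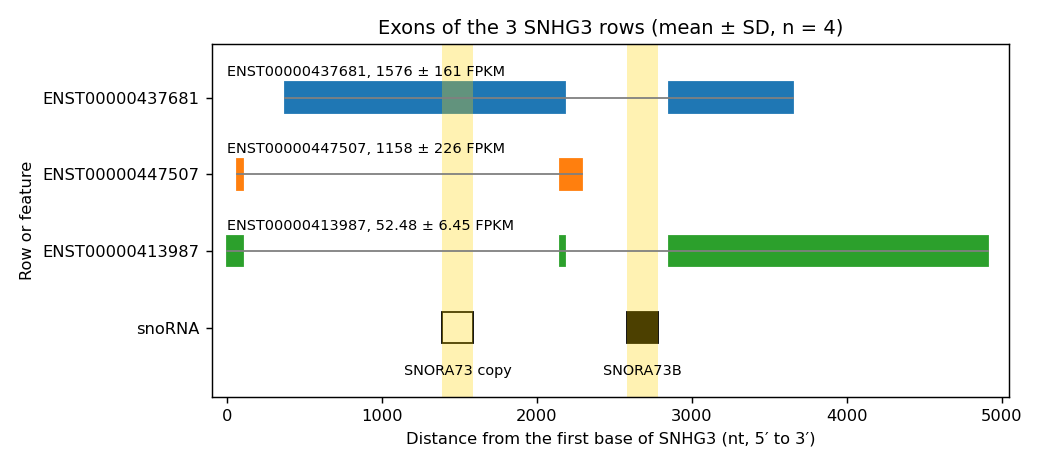
Exons (boxes) and introns (lines) of the 3 SNHG3 rows by distance from the first base of the gene, with their mean FPKM and SD, and the annotated SNORA73B (filled box) and SNORA73 copy (open box) on the lowest line. The first exon of ENST00000437681 spans the copy, and no row spans SNORA73B.

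The last exon of ENST00000447507 (chr1:28834640-28834782, plus strand, 143 bases) is shown because it sets this row apart. Its 33 bases in lower case are the middle exon of the spliced row, and the 110 bases in capitals, which begin with the GTGAGT of a 5′ splice site, belong to no other row of SNHG3.
Last exon of ENST00000447507: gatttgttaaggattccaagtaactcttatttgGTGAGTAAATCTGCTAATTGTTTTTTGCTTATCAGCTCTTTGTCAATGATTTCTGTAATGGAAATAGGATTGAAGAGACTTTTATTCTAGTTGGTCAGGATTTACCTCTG
This row held 41.6% of the FPKM of SNHG3 but a small part of its estimated fragments. The estimate was set on rows longer than 400 nt, and this row of 185 nt lies outside that range. From the steps of low FPKM values, ENST00000447507 had about 410, 627, 563 and 751 fragments in replicates 1 to 4, and the spliced ENST00000413987 about 457, 549, 480 and 660. ENST00000437681 had about 17439, 19220, 17086 and 23115 fragments, which is 94.2% to 95.3% of the gene. Over the 3 rows, FPKM gave ENST00000447507 22.1 times the level of the spliced row, on similar estimated numbers of fragments.

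In replicate 1, the balance between these rows differed. ENST00000437681 took 62.5% of the gene there, against 54.7% to 55.0% in the other 3 libraries, and ENST00000447507 took 35.5% against 43.1% to 43.5%. The ratio of the leading to the next row was 0.46 ± 0.24 on the log2 scale, with all 4 libraries above 0 and the highest at 0.82. Exons of the coding gene RCC1 overlap the SNHG3 rows on the same strand by 75 to 242 nt, and reads of RCC1 placed there could not be told apart.

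SNHG12 (chr1:28905050-28909495, minus strand, 67645 bases from the end of SNHG3) was divided among more rows. ENST00000461448, a retained intron row, had 158.0, 186.3, 158.8 and 173.7 FPKM, a mean of 169 ± 13.5, or 35.3% of the gene. ENST00000464612, also a retained intron row, had 141.7, 161.6, 127.3 and 157.2 FPKM, a mean of 147 ± 15.6, or 30.6%. ENST00000488745, with 6 exons, had 71.26, 80, 73.05 and 66.74 FPKM, a mean of 72.8 ± 5.51, or 15.2%. The leading row was only 0.21 ± 0.08 above the next on the log2 scale, though it was the higher in 4 of 4 libraries. In the current models, neither of these rows had a stretch of 50 bases found in no other row. The split between them thus rests on how shared reads were divided, which the SD does not cover. The 5 other rows above 0 lay between 1.90 and 36.6 FPKM and held 19.0% together. Retained intron rows took 82.7% ± 1.96 of the gene.

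SNHG11 (chr20:37075221-37079583, plus strand) had the most rows, and the share of its leading row had the widest spread of the 5 genes (SD of 8.03 percentage points). ENST00000444816 had 43.5, 38.5, 37.8 and 25.2 FPKM, a mean of 36.3 ± 7.79, lowest in replicate 4. ENST00000434729 had 10.5, 15.1, 15.1 and 11.9 FPKM, a mean of 13.1 ± 2.31. ENST00000457218 had 13.5, 6.53, 9.73 and 14.97 FPKM, a mean of 11.2 ± 3.80. Their shares of the summed mean were 40.9%, 14.8% and 12.6%, and the 8 other rows above 0, at 0.28 to 7.90 FPKM, held 31.7%. The leading row exceeded the next by 1.39 ± 0.40 on the log2 scale. In the current models, ENST00000434729 and ENST00000457218 had no stretch of 50 bases of their own, so their shares rest on how shared reads were divided.

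**Figure D4:**
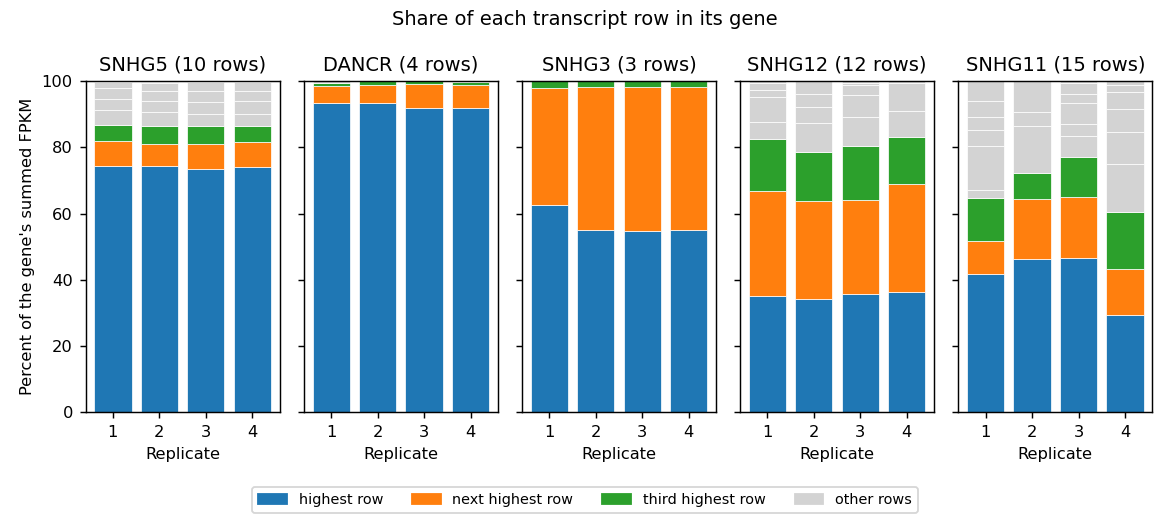
Percentage of each gene's summed FPKM taken by its highest row (blue), next highest row (orange), the third highest row (green) and all others (grey), per library. The highest row takes 91.9% to 93.5% of DANCR in each library but 29.4% to 46.5% of SNHG11.

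In all 5 genes the leading row was the higher of the pair in 4 of 4 libraries. The exact two-sided sign-flip permutation test gave p = 0.125 for each, the smallest that 4 libraries allow, also after adjustment over the 5 members. The leading and next rows were chosen by their means in these same libraries, so the direction was set by that choice and the ratio describes its size. Compared with 1335 lncRNA genes of 2 or more rows and at least 5 FPKM, whose leading row took a median of 86.9%, the share was lower in 56.4% of genes than in DANCR, in 36.9% than in SNHG5, in 18.0% than in SNHG3, in 5.39% than in SNHG11 and in 2.92% than in SNHG12. Over 108 lncRNA genes with both retained intron rows and others, the retained intron rows took a median of 28.9%. SNHG3 lay above 91.7% of these genes and SNHG12 above 76.9%, while SNHG11 (19.6% of its FPKM) lay above 42.6% and SNHG5 (2.47%) above 24.1%. These percentages describe the table and carry no test. The genes compared were not matched for their number of rows, which was 15 in SNHG11 and 12 in SNHG12. Spread followed level: the 13 member rows at 100 FPKM or more had SD of 6.14% to 21.8% of the mean, and the 13 rows above 0 but under 10 FPKM had 21.3% to 200%.

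A row whose exons hold a snoRNA could also take reads of the snoRNA itself. In the current models, an annotated snoRNA lay in 2 rows: SNORA26 in ENST00000441504, with 6.15% ± 1.05 of DANCR, and SNORA60 in ENST00000444816, with 40.9% ± 8.03 of SNHG11. Both rows have another version in the table, and the sequences that the study lists for them, which may be partial, fell outside the snoRNA. The letters for ENST00000441504 were placed at chr4:53578990-53579294, before SNORA26, and those for ENST00000444816 at chr20:37079382-37079563, beyond SNORA60. Whether the versions used held these snoRNAs was not tested further.

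With the sequence copies counted as well, which may be snoRNAs that RefSeq lists, 18 rows held at least part of a snoRNA. They took 56.8% ± 3.84 of SNHG3, 14.6% ± 0.44 of SNHG5, 60.1% ± 7.83 of SNHG11, 75.6% ± 2.56 of SNHG12 and 6.15% ± 1.05 of DANCR. Weighted by transcript length, which is nearer to a share of reads, these rows took 92.6% ± 0.77 of SNHG3, 21.0% ± 0.67 of SNHG5, 56.6% ± 8.27 of SNHG11, 76.5% ± 1.82 of SNHG12 and 27.2% ± 3.61 of DANCR. Where the whole snoRNA had to lie in an exon, the shares were 56.8% in SNHG3, 7.62% in SNHG5, 47.8% in SNHG11, 44.5% in SNHG12 and 6.15% in DANCR. The SNHG12 shares rest on copies of SNORA44 (84.3% of its length matched) and SNORA16B, and no ACA box was found near the end of either. The SNHG11 copy matched SNORA71C at 79.7% identity. The sequences of these copies are not shown. Leaving out the rows that hold a snoRNA or a copy, a setting chosen after seeing the data, takes more from SNHG3 than from DANCR. The lead of DANCR over SNHG3 was therefore larger there, at a log2 ratio of 1.61 (adjusted p = 6.94e-12, limma). The part of snoRNA reads in these values was not tested.

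The sequence at the start of the genes was compared because many host genes begin with a run of pyrimidines, a feature of messenger RNAs of the translation machinery. RefSeq starts on GRCh38.p14 are shown from 30 bases before to 30 bases after the start, with the longest run of C or T that touches the 10 bases on either side in capitals.
Start of SNHG5, chr6:85678704-85678763, minus strand: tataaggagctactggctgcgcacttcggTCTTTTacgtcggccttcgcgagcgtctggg
Start of DANCR, chr4:52712364-52712423, plus strand: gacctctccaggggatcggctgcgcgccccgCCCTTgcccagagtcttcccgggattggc
Start of SNHG3, chr1:28505913-28505972, plus strand: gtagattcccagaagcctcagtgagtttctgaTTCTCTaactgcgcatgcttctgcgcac
Start of SNHG12, chr1:28581844-28581903, minus strand: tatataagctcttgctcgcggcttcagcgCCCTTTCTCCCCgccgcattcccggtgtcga
Start of SNHG11, chr20:38446624-38446683, plus strand: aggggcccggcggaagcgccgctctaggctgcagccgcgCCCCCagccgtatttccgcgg
The run had 12 bases in SNHG12, 6 in SNHG5 and SNHG3, and 5 in DANCR and SNHG11. A run of at least 7 was thus found in 1 of 5, against 21.3% of 35116 RefSeq starts and 12 of 23 other host genes on the list.

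A list of SNHG1 to SNHG32, GAS5, DANCR, ZFAS1, EPB41L4A-AS1 and MEG8 held 37 host gene names, which were not checked for 2 names of the same gene. Of these, 25 had a mean of at least 0.1 FPKM and were tested. Listed names with a lower mean or no matched row were left out. SNHG5, DANCR, SNHG3, SNHG12 and SNHG11 took ranks 2, 3, 5, 15 and 21 of the 25. Of the 20 others, 18 were above 5 FPKM, 1 below and 1 not placed, against the 50.3% above of all genes tested. Their median was 550 FPKM, that of all tested genes 7.61 FPKM. The highest of the others were SNHG29 at 9764 ± 1181, GAS5 at 3584 ± 234 and ZFAS1 at 2491 ± 199 FPKM. The lowest were SNHG14 at 13.13 ± 1.005, SNHG31 at 5.43 ± 3.22 and SNHG27 at 1.015 ± 1.014 FPKM.

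**Figure D5:**
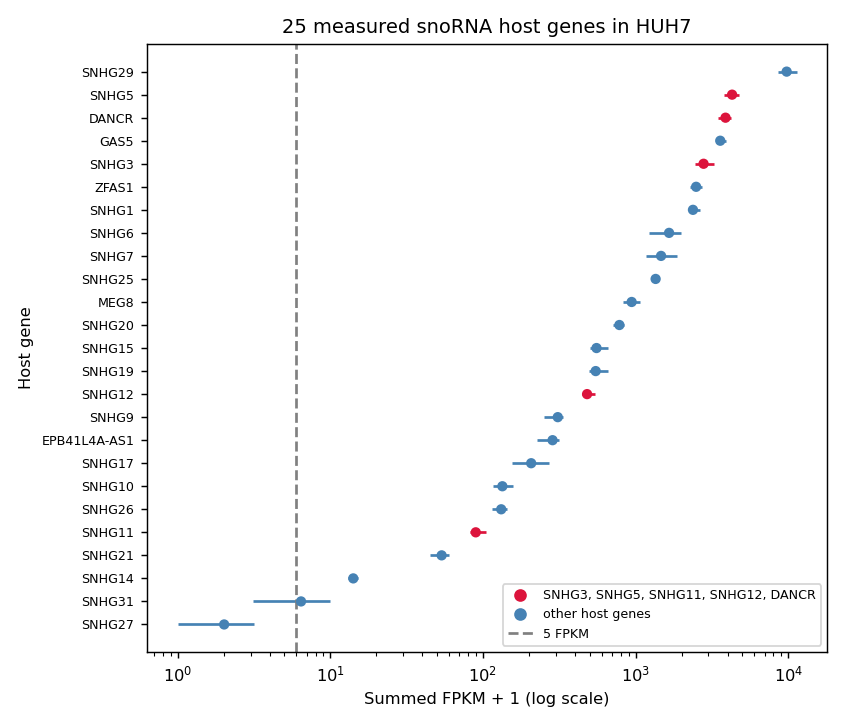
Mean summed FPKM + 1 (points, log axis) and the range over 4 libraries (lines) of the 25 tested host genes. The 5 described genes are in red, the others in blue, and 5 FPKM is dashed. Of the red points, SNHG5 is at 4286 FPKM and SNHG11 at 88.7 FPKM, and SNHG29, in blue, stands above all of them at 9764 FPKM.

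The 5 genes together took between 0.566% and 0.663% of the summed FPKM of a library, of which a single row outside these genes took 58.1% to 65.6%. The steps of low values gave about 4500000, 4870000, 4760000 and 5070000 fragments for replicates 1 to 4. Of the liver markers, 5 of 8 measured were above 5 FPKM and their sum was 1472 to 1673 FPKM, while the 3 blood markers summed to 2.51 to 4.34 FPKM, with MIR155HG at 0. The muscle marker lay between 0 and 6.57 FPKM, the prostate markers summed to 2.32 to 4.41, the lung marker TBX5-AS1 was at 0, and the pluripotency markers summed to 7.65 to 12.1. The squamous marker MIR205HG lay between 110 and 154 FPKM and the neural markers summed to 66.2 to 85.4 FPKM, all from RMST, with MIR9-3HG at 0.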

How the data were processed

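RNA of HUH7 cells was measured in 4 strand-specific libraries made after removal of ribosomal RNA, although the labels name polyA RNA. The authors deposited FPKM values. Per the submitters' processing notes and the study's methods, reads were aligned with Bowtie 1.01 to Ensembl non-coding transcripts on hg19 (GRCh37) and quantified with RSEM 1.2.3, which divides reads shared by isoforms, so shares of overlapping rows depend on each other.

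Identifiers were matched without version to GENCODE release 44 on GRCh37 (18373 of 19835). A gene value was the sum of its rows. Log2(FPKM + 1) of genes and rows with a mean of at least 0.1 FPKM was tested against 5 FPKM with limma 3.58.1 in R 4.3.3 (one-sample, trend, two-sided, Benjamini-Hochberg over all features, threshold 0.05), and the scripts were tested on simulated data. This scale understates low values. Copies of snoRNAs were found with blastn 2.17.0. FPKM hold no counts. Depth was estimated from low values of rows longer than 400 nt. Of these values, 73.0% to 73.9% lay within 0.1 of a whole fragment at length minus 80 nt. No count test was run on them. Rows were named when they held at least 10% of a gene, were among its 2 highest or held an annotated snoRNA; the spliced SNHG3 row was added after its values were seen. The 2 genes most alike each member, and the 3 highest and 3 lowest other host genes, were named by rule. Members and lists were chosen with earlier results of these data known. Alternatives covered pseudocount, filter, threshold, scaling, trend, rows summed and each library left out.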

Additional observations from a re-analysis of the deposited data

Results flagged for a closer look

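Of 36 values tested for a library far from the others, 3 stood apart, all of them SNHG3 shares in replicate 1. ENST00000437681 took 62.5% of SNHG3 in replicate 1 and 54.7% to 55.0% in the other 3 libraries, and the gap was 0.961 of the range. The share of rows that hold a snoRNA or a copy is the same row, at 62.5%. ENST00000447507 took 35.5% there and 43.1% to 43.5% elsewhere, and the gap was 0.956 of the range. The shares of 1 gene sum to a whole, so these are 1 pattern. Chance alone marks about 1 in 20 such groups.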

How the results depend on the processing

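Of 237 values recomputed under another setting, 221 were counted as the same. For tested values this meant the same direction and side of the threshold. For counts it allowed a moderate change, such as 27 rows in place of 21. Most recomputed ratios of leading rows carried no p-value, so no threshold applied to them. Each member stayed above the level tested (1, 5 or 10 FPKM) under each alternative that could give it a value. With rows of the same version alone, 2 member genes (SNHG3 and SNHG12) and 11 listed host genes were counted above 5 FPKM, since other genes lost their rows. Member rows above 5 FPKM numbered 21 or 22 over the alternatives that kept this level, 27 were above 1 FPKM and 19 above 10 FPKM. The shares of all rows above 1 and 10 FPKM were not computed, so the counts at these levels have no background. SNHG5 over DANCR reversed, to a log2 ratio of -0.18, when the highest row stood for each gene, and its adjusted p lay between 0.14 and 0.973 over the limma alternatives. DANCR over SNHG3 lay between 0.39 and 1.61, with adjusted p from 6.94e-12 to 0.0466, the highest without replicate 3. The exact sign-flip permutation test left DANCR over SNHG3 (0.48), SNHG3 over SNHG12 (2.53) and SNHG12 over SNHG11 (2.42) at p = 0.125, as its construction with 4 libraries sets. The leading rows were chosen by their means in these libraries, so limma over all rows is no independent test of their lead. It gave adjusted p of 0.0246 in SNHG3 (log2 ratio 0.46), 2.05e-14 in SNHG5 (3.33), 1.18e-05 in SNHG11 (1.39), 1.05e-49 in DANCR (3.92) and 0.0661 in SNHG12. Weighted by transcript length, the share of rows holding an annotated snoRNA was 27.3% in SNHG11 and 27.2% in DANCR. Counting sequence copies, an alternative chosen after seeing the data like the orders without such rows, gave 56.8% in SNHG3, 14.6% in SNHG5, 60.1% in SNHG11 and 75.6% in SNHG12, where the annotated snoRNAs alone gave 0 in SNHG3, SNHG5 and SNHG12. No paired analysis was possible because the libraries form 1 group and share no replicate number, and the letters in their titles are, per the submitters, no variable. Low rows rest on few fragments, so their shares are the least certain.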
